A study of Mus musculus with 32 samples.

Results

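The superior mesenteric ganglion (SMG) of 3-week-old TH-MYCN mice was compared with the same ganglion of wild-type mice. The samples are the 16 of the 28 in the series whose titles name the SMG, 8 of each genotype, each called a ganglion for short. The series has 32 arrays, since 4 passaged sphere cultures were each read on 2; the other samples are sphere cultures grown from TH-MYCN mice, whose levels are given here only beside those of the ganglia. All mice were 3 weeks old and of the strain background 129+Ter/SvJcl. The TH-MYCN mice were hemizygous (TH-MYCN+/-) for a human MYCN transgene behind a tyrosine hydroxylase promoter, so the transgene is driven in catecholamine-producing cells, while the RNA came from the whole ganglion with its neurons, glia, vessels, connective tissue and immune cells. The series states 8 biological replicates for each group; the sex of the mice, whether they were littermates and how many ganglia went into a sample are not stated in these sources. In whole tissue, fewer cells of a type and less RNA per cell cannot be told apart.

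The SMG is a sympathetic ganglion of the abdomen whose noradrenergic neurons serve the gut. Sympathetic neurons arise from the neural crest and pass through a stage of dividing neuroblasts before they mature. MYCN is a transcription factor that pairs with MAX and binds E-box DNA; it is active in neuroblasts and is amplified in aggressive neuroblastoma, and in TH-MYCN mice clusters of neuroblast-like cells persist in sympathetic ganglia after birth and can go on to form tumours.

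Messenger RNA was measured on 1-colour Agilent arrays. A level is the log2 of the processed spot signal minus the 75th percentile of its array, so a level of 0 is a bright probe, a difference of 1 is 2-fold, and levels of different genes are not compared. The 75th percentile of signal was 519 to 985 on wild-type arrays and 837 to 1356 on TH-MYCN arrays, and across genes arrays of a group correlated at 0.964 to 0.994. The tissue label was borne out by its markers: all 12 sympathetic neuron genes tested were well above background on all 16 arrays. Replicates 1 to 4 of both groups shared slide 1 and replicates 5 to 8 slide 2, and on both slides the wild-type arrays lay in slide row 1 and the TH-MYCN arrays in row 2, so that array row and genotype cannot be told apart. The Mycn probe lay at 0.81, 1.24 and 1.97 (lowest, median and highest) in wild type and at 0.87, 1.02 and 1.26 in TH-MYCN ganglia, with overlapping groups. The difference was -0.29 (adjusted p 0.0606, limma, and unadjusted p 0.0381 in an exact permutation test of this single value). The probe is annotated to the mouse gene. No source used here says whether it reads the human transgene, so it does not check the genotype labels. Ddx3y, a Y-linked gene, was not well above background in wild-type replicates 2 and 6, in which an Xist probe was, and the reverse held in the other 14 ganglia, so 2 wild-type libraries differ from all the rest in these sex-linked genes.

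Of 15845 genes tested, 65.8% were called at an adjusted p under 0.05 (limma, Benjamini-Hochberg over all genes), 3448 higher in TH-MYCN ganglia (21.8%) and 6981 lower (44.1%). Falls were more frequent and smaller: 1232 genes were at least 2-fold higher (7.78%) and 995 at least 2-fold lower (6.28%), and the median gene differed by -0.22. With another background correction (normexp) 805 genes were at least 2-fold higher and 372 at least 2-fold lower. The groups did not overlap for 1430 genes higher in TH-MYCN ganglia (9.02%) and 1999 lower (12.6%), and 59.8% of genes were called whichever sample was left out. TH-MYCN replicate 4 stood apart: it had the lowest TH-MYCN value in 93.3% of the genes at least 2-fold higher and the highest in 66.4% of those at least 2-fold lower. Without it, 1354 genes were at least 2-fold higher and 1404 at least 2-fold lower, and the median of only 2 of 62 gene lists changed sign, those of erythroid cells and tRNA synthetases. Without the 2 wild-type libraries that differ in sex-linked genes the counts were 1229 and 1017. Lists are described by how many tested members were called and by their median difference, beside the shares and the median of all genes just given.

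Transcription factors of the sympathoadrenal lineage rose more often than they fell. Of 19 tested, 11 were higher and 3 lower, with a median of 0.35 (0.57 on slide 1 and 0.15 on slide 2). Prox1, a homeodomain factor of neural progenitors, lay between -4.85 and -3.90 in the wild-type ganglia (median -4.20) and between -1.77 and -0.16 in the TH-MYCN ganglia (median -0.36). Every TH-MYCN ganglion was above every wild-type ganglion, and the mean was 13.4-fold higher (log2 difference 3.75, SE 0.21, adjusted p 3.26e-10, limma). Ebf3, a helix-loop-helix factor of neuronal differentiation, lay at -2.29, -1.87 and -1.38 (lowest, median and highest) in wild type and at 0.06, 1.42 and 2.08 in TH-MYCN ganglia, again without overlap and 8.82-fold higher. Sox11, a SoxC factor of immature neurons, went from -0.97, -0.01 and 0.11 to 1.69, 2.92 and 3.23, also without overlap. Its relative Sox4 rose by 1.47, the LIM-domain co-factor Lmo3 by 1.95 and the LIM homeodomain factor Isl1 by 0.89. Insm1, the zinc-finger factor of neuroendocrine progenitors, had the largest difference of the list (7.45). Phox2a (-0.39), Hand2 (-0.22) and Gata3 (-0.02) were not called. Hand1 (-0.83), Gata2 (-0.64) and Klf7 (-0.59) were lower, with overlapping groups.

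Genes of early neuronal differentiation moved in both directions. Of 23 tested, 11 were higher and 7 lower, with a median of 0.33 (0.58 on slide 1 and 0.03 on slide 2). The 3 helix-loop-helix factors Neurod6, Neurod1 and Nhlh2, which are switched on in newly born neurons, were above background on no wild-type array. Neurod6 lay at -2.37, -0.47 and 0.22 on the TH-MYCN arrays, at least 34.8-fold higher. Neurod1 was at least 2.52-fold higher, being above background in 7 of 8 TH-MYCN and no wild-type ganglia. Nhlh2 was at least 12.5-fold higher, but its probe follows a pattern shared by many unrelated probes that is described at the end. Dcx, a microtubule-binding protein of migrating neuroblasts, lay at -0.31, 0.21 and 0.43 in wild type and at 1.53, 2.89 and 3.14 in TH-MYCN ganglia. The groups were well separated (difference 2.58, SE 0.19), and both other Dcx probes gave 2.47 and 2.66. The zinc-finger factor Myt1 rose by 1.34. Among the falls, the axonal and microtubule genes were moderate: Stmn2 fell by 0.63, Stmn3 by 0.62, Tubb3 by 0.53 and Gap43 by 0.37, and the groups did not overlap for the first 3 of these.

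**Figure D1:**
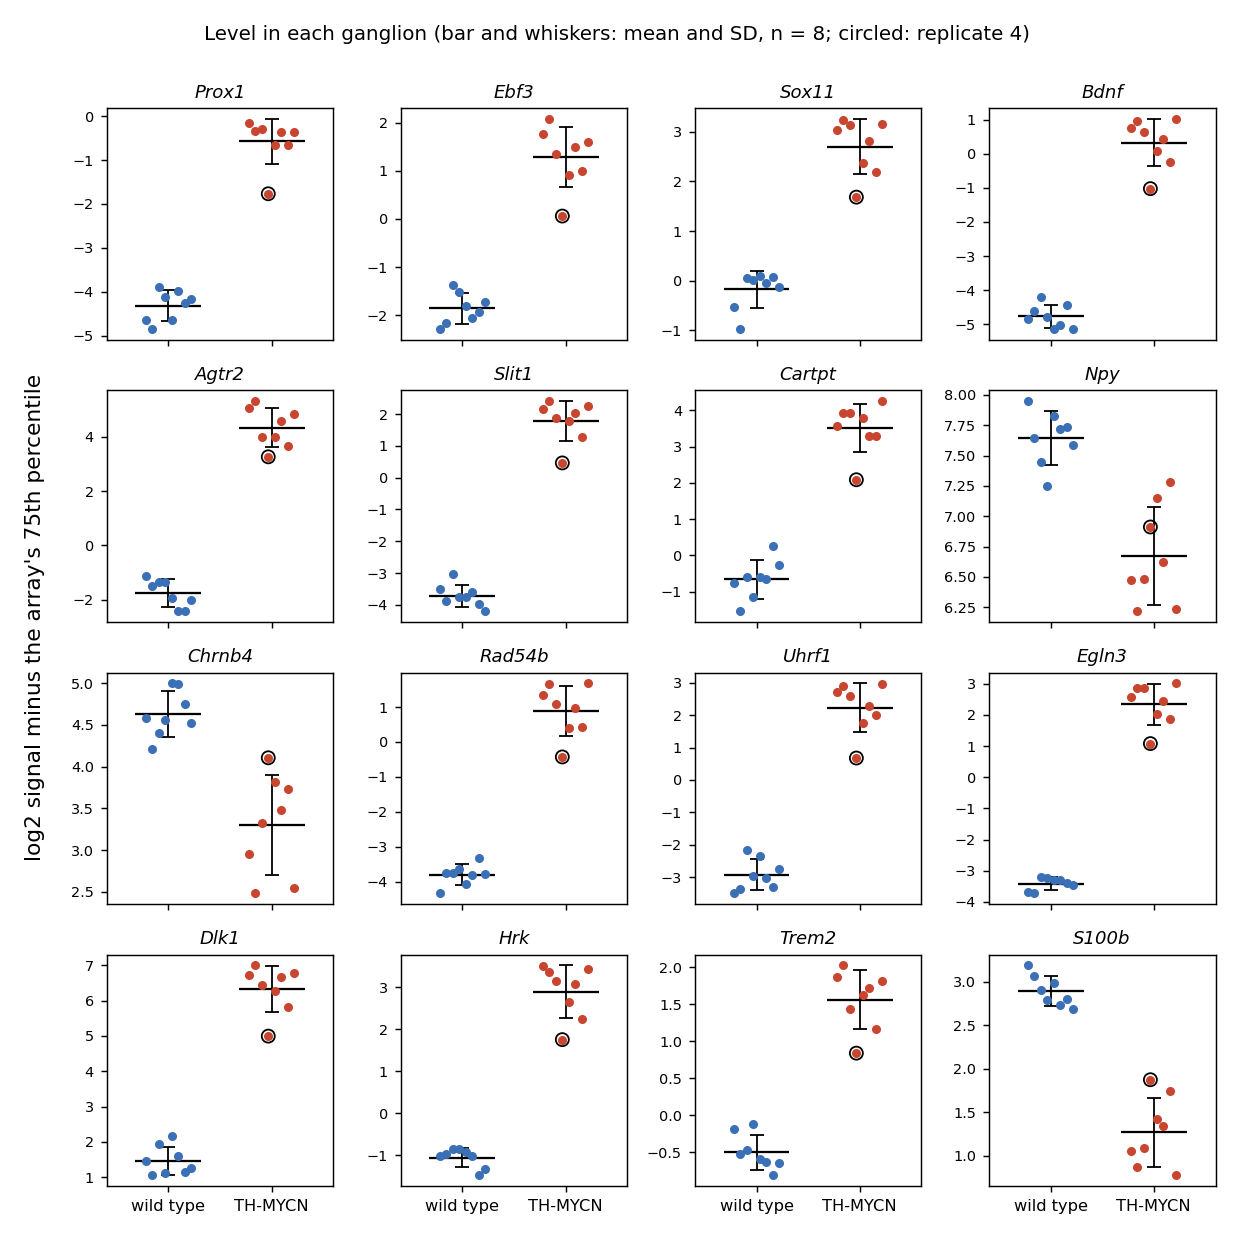
Levels of 16 genes in each ganglion, as log2 signal minus the 75th percentile of the array, with wild type in blue, TH-MYCN in red, and bar and whiskers for mean and SD (n = 8). Prox1, Ebf3, Sox11, Bdnf, Agtr2, Slit1, Cartpt, Rad54b, Uhrf1, Egln3, Dlk1, Hrk and Trem2 are higher and Chrnb4 and S100b lower in every TH-MYCN ganglion than in any wild-type ganglion, Npy overlaps, and replicate 4 (circled) is the TH-MYCN ganglion nearest to wild type in all but Npy.

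Growth factor ligands and receptors included both falls and a few large rises. Of 25 ligands tested, 6 were higher and 13 lower (median -0.52), not far from the 44.1% lower among all genes; of 23 receptors, 3 were higher and 15 lower (median -0.69). Bdnf, the neurotrophin that binds the receptor Ntrk2, lay at -5.14, -4.81 and -4.21 in wild type and at -1.02, 0.53 and 1.02 in TH-MYCN ganglia. No ganglion of one group reached the other, and the mean was 34.3-fold higher (difference 5.10, SE 0.25, adjusted p 1.24e-10, limma). Ntf3, the ligand of Ntrk3, was well above background in 1 wild-type and all 8 TH-MYCN ganglia, with a fitted difference of 2.22 that became -0.0308 with another background correction (normexp), so its direction is uncertain. Midkine (Mdk), a heparin-binding growth factor of embryonic tissue, rose by 1.34 with slight overlap, and Fgf13, an intracellular FGF relative that modulates sodium channels, by 1.28. Lif (5.88) and Fgf2 (4.30) also passed the test, but both probes belong to or come close to the shared pattern described at the end.

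Other ligands were lower. Nrg1, the neuregulin that supports Schwann cells, lay at 2.71, 2.88 and 3.15 in wild type and at 0.94, 1.72 and 2.56 in TH-MYCN ganglia, without overlap and 2.32-fold lower. Kit ligand (Kitl) fell by 1.06, Fgf1 by 1.16, and the GDNF-family ligands neurturin (Nrtn) and artemin (Artn) by 0.92 and 0.78. Among receptors, the low-affinity neurotrophin receptor Ngfr (-1.16) and the GDNF-family signalling receptor Ret (-0.93) fell, with overlapping groups. The Ret co-receptor Gfra3, which binds artemin, was higher by 0.86. The largest receptor difference outside these families was in Agtr2, the angiotensin II type 2 receptor of fetal tissue. It lay at -2.43, -1.72 and -1.12 in wild type and at 3.26, 4.28 and 5.32 in TH-MYCN ganglia, a 68.5-fold difference with no overlap (adjusted p 8.34e-11, limma).

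Axon guidance genes moved in both directions. Of 33 tested, 12 were higher, 9 of them at least 2-fold, and 15 lower, with a median of -0.27. Slit1, a secreted repellent read by Robo receptors, lay at -4.20, -3.75 and -3.04 in wild type and at 0.46, 1.95 and 2.40 in TH-MYCN ganglia. The groups lay far apart and the mean was 45.0-fold higher (difference 5.49, SE 0.24). Slit2 followed, from -1.47, -1.08 and -0.72 to 0.95, 2.29 and 2.67, while Slit3 fell by 0.50. The receptor Robo1 rose by 0.71 and Robo2 was not called (0.12). Sema3a, a repellent of sympathetic axons, was above background in 4 wild-type and 8 TH-MYCN ganglia with a fitted difference of 5.06, and a second probe gave 2.44. The ephrin Efnb3 rose by 2.01 and its receptors of the Eph family Ephb1 and Epha4 by 3.92 and 1.32; these were above background in only 1 and 5 of the wild-type ganglia, and Epha4 became -0.0683 with normexp correction. Netrin 1 (Ntn1) fell by 0.88, its receptors Unc5b (-1.10), Unc5a (-1.01) and Unc5c (-1.01) fell with it, whereas the netrin receptor Dcc was not called (-0.17). Sema3d fell by 1.48 and was above background in 8 wild-type and 1 TH-MYCN ganglia.

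Neuropeptide genes had no common direction: of 17 precursors tested, 6 were higher and 7 lower. Those lower include the abundant peptides of adult sympathetic neurons. Npy lay at 7.25, 7.68 and 7.95 in wild type and at 6.22, 6.55 and 7.28 in TH-MYCN ganglia, 1.96-fold lower with the ranges just touching. Galanin (Gal) lay at 4.90, 5.08 and 5.57 against 3.85, 4.16 and 4.64, 1.97-fold lower without overlap, and somatostatin (Sst) fell by 1.17. Cartpt, which encodes the CART peptide, rose from -1.54, -0.63 and 0.27 to 2.09, 3.68 and 4.26, 18.2-fold and without overlap. Cort, the precursor of the somatostatin relative cortistatin, rose by 1.77 and Adcyap1, the precursor of PACAP, by 2.90, the latter from 5 to 8 ganglia above background. Pnoc, the precursor of nociceptin, was above background on no wild-type and all TH-MYCN arrays, at least 702-fold higher, and its receptor gene Oprl1 fell by 0.57. The calcitonin and CGRP gene Calca rose by 2.18 on one probe, while its other probe above background gave 0.65 and was not called.

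Most genes for the receptors, channels and release machinery by which neurons receive and pass on signals were lower. Of 29 neurotransmitter receptors tested, 2 were higher and 21 lower, 13 of them at least 2-fold (median -0.89). Among nicotinic subunits, which carry ganglionic transmission, 3 fell: Chrna3 lay at 2.89, 3.10 and 3.24 in wild type and at 1.46, 2.08 and 2.68 in TH-MYCN ganglia, Chrnb4 at 4.21, 4.57 and 5.00 against 2.48, 3.40 and 4.11, and Chrna5 at -1.74, -1.26 and -1.01 against -3.19, -2.59 and -1.58. The groups did not overlap for Chrna3 and Chrnb4, and their falls were 2.02-fold and 2.50-fold; Chrnb2 (-0.22) and Chrna7 (-0.15) were not called. Chrna4, a subunit best known from the brain, was above background on no wild-type and all TH-MYCN arrays, at least 6.93-fold higher. The muscarinic receptor Chrm2 fell by 1.38, the serotonin-gated channel Htr3a by 1.22 and the somatostatin receptor Sstr2 by 1.35.

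Among 34 voltage-gated and related channel genes, 4 were higher and 23 lower (median -0.55). The falls included the axonal potassium channels Kcna2 (-1.36) and Kcna1 (-0.97) and the M-current subunits Kcnq3 (-1.24) and Kcnq5 (-1.10). All 4 rises were calcium channel genes. Cacna1d, an L-type subunit, lay at -3.24, -2.47 and -2.33 in wild type and at -1.96, -1.26 and -0.95 in TH-MYCN ganglia, without overlap. Cacnb2 (2.02), Cacna1g (1.48) and Cacna1h (0.41) also rose; the first 2 were above background in 1 and 4 wild-type ganglia, Cacna1g became -0.0675 with normexp correction, and the mean of the Cacna1h probes was -0.0749. A pair of accessory potassium channel subunits appeared that were not measurable in wild type: Kcnip1 at least 50.8-fold and Kcnmb2 at least 43.0-fold higher, with TH-MYCN levels of -1.47 to 0.56 and of -1.87 to 0.54. Of 25 genes of synaptic vesicle release, 23 were lower and 1 higher (median -0.77). The calcium sensor Syt1 lay at 6.88, 7.16 and 7.41 in wild type and at 5.27, 6.28 and 6.70 in TH-MYCN ganglia, 2.04-fold lower and without overlap, and Vamp1 fell by 1.13. The exception was the vesicle protein Sv2b (1.56), above background in 1 wild-type and 7 TH-MYCN ganglia and at -0.0782 with normexp correction. The neuronal synuclein Sncg fell 2.22-fold and the microtubule protein Map1a by 1.11, while the neurofilament genes Nefl (0.17) and Nefm (0.33) were not called.

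Genes of homologous recombination and the Fanconi anaemia pathway, which repair DNA breaks and crosslinks in cells that replicate their DNA, had the highest median of the 62 lists. Of 24 tested, 22 were higher, 20 at least 2-fold and 18 without overlap, and 1 was lower; the median was 2.10, or 2.03 with the 4 genes not measurable in wild type at their bounds. Rad54b, a DNA-dependent motor protein of recombination, lay at -4.33, -3.75 and -3.31 in wild type and at -0.43, 1.02 and 1.68 in TH-MYCN ganglia. Its lowest TH-MYCN value was well above the highest wild-type value, and the mean was 25.8-fold higher (difference 4.69, SE 0.26, adjusted p 2.97e-10, limma). Its relative Rad54l rose by 4.26, the Fanconi core gene Fanca by 3.75 and the ID complex gene Fanci by 3.53. Clspn, the claspin adaptor of the replication checkpoint, Fancd2, the helicase Brip1 and Brca1 were above background on no wild-type array and at least 16.7-fold, 8.67-fold, 5.16-fold and 1.75-fold higher. Brca2, a mediator of recombination, rose by 2.08. The checkpoint kinase gene Atr rose by 0.76, its partner Atrip fell by 0.18, a call lost when some single samples were left out, and Chek1 was not called (0.90).

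Chromatin genes rose as well. Of 26 other chromatin regulators tested, 19 were higher and 1 lower (median 0.61). The DNA-bending protein Hmgb2 lay at 0.34, 0.89 and 1.23 in wild type and at 4.22, 5.75 and 6.14 in TH-MYCN ganglia, 26.0-fold higher and without overlap. The replication-coupled histone chaperones Chaf1b (3.81), Asf1b (3.70) and Chaf1a (2.66) and the remodeller Hells (2.80) followed. Smarcc1 fell by 0.84 on its brightest probe, and its 2 other probes rose by 0.74 and 0.81, so its direction is uncertain. Of 12 DNA methylation enzymes, 8 were higher and 3 lower. Uhrf1, which brings Dnmt1 to newly copied DNA, lay at -3.50, -3.00 and -2.18 in wild type and at 0.68, 2.44 and 2.95 in TH-MYCN ganglia, 35.8-fold higher, whereas Dnmt1 itself rose by 1.16, Dnmt3a by 1.11 and Dnmt3b by 1.42. The demethylase Tet1 rose by 0.51; Tet3 fell by 0.64 on its brightest probe against rises of 0.38 and 0.77 on 2 others. Dnmt3l fell by 1.04. Of 17 Polycomb repressive complex 1 genes, 8 were higher and 5 lower: the core gene Bmi1 lay at -0.07, 0.33 and 0.50 against 1.35, 2.19 and 2.68 and Cbx2 rose by 1.26, while the alternative chromobox genes Cbx6 and Cbx8 fell by 0.66 and 0.27.

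Promoters of these genes are shown because genes of the replicating cell are known to carry CCAAT boxes, bound by NF-Y, and cell cycle homology regions with TTTGAA near their starts. Each is the 150 bases just before the annotated start, from RefSeq windows on GRCm38.p6, 5′ to 3′ on the gene's strand, with the motif in capitals (CCAAT read on either strand, as CCAAT or ATTGG, in the first 4, and TTTGAA in Hmgb2). The windows are chr4:126556830-126556979 (plus strand) for Clspn, chr11:86201194-86201343 (minus) for Brip1, chr11:101551956-101552105 (minus) for Brca1, chr17:56303187-56303336 (plus) for Uhrf1 and chr8:57511693-57511842 (plus) for Hmgb2.
Clspn: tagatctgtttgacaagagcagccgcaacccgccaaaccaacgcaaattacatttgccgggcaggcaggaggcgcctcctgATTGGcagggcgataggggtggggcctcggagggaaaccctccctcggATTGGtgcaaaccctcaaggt
Brip1: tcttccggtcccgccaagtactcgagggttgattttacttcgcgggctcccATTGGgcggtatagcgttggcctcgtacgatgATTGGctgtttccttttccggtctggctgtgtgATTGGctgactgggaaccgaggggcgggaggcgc
Brca1: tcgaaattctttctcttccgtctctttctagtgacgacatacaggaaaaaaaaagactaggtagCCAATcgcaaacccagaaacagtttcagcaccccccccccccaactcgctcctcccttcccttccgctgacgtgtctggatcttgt
Uhrf1: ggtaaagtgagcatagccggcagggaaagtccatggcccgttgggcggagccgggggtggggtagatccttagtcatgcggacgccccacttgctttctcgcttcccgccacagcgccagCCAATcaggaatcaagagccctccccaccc
Hmgb2: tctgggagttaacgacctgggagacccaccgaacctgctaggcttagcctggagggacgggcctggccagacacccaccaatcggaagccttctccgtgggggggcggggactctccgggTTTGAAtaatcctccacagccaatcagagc
The marked motif occurs 2 times in the Clspn window, 3 times in that of Brip1 and 1 time in each of the others. The windows were chosen for holding the motif marked, and that of Hmgb2 also holds CCAAT, left in lower case.

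Over promoter windows of 300 bases, CCAAT on either strand was found in 45.6% of 1220 windows of genes at least 2-fold higher, 37.6% of 968 windows of genes at least 2-fold lower and 37.5% of 15871 windows of all tested genes with a window. TTTGAA was found in 19.1%, 12.6% and 12.5% of the same windows. CACGTG, the E-box that MYC and MAX bind, was found in 8.44%, 5.79% and 9.27%, so the genes at least 2-fold higher carried it about as often as all tested genes. Over 32851 windows of all genes, tested or not, the shares were 37.4% for CCAAT, 17.9% for TTTGAA and 7.15% for CACGTG. The TTTGAA share of the genes at least 2-fold higher was thus above that of all tested genes and near that of all genes. Their CACGTG share lay below that of all tested genes and above that of all genes. Both readings depend on which genes are the reference. Of the 19 recombination and Fanconi genes with a window, 12 held CCAAT, 1 held TTTGAA and 0 held CACGTG. These are matches of letters in a window and not measured binding, and several windows of a gene can overlap.

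Splicing factors rose as a group and by moderate amounts. Of 27 tested, 22 were higher, 7 at least 2-fold, and 1 was lower (median 0.77). The SR protein gene Srsf7 lay at 2.21, 2.51 and 2.86 in wild type and at 3.28, 4.02 and 4.56 in TH-MYCN ganglia, 2.72-fold higher and without overlap. Lsm2 (1.30), Hnrnpab (1.21), Hnrnpa1 (1.20) and Ptbp1 (1.20), the last a repressor of neuronal exons, rose as well. The splicing regulators of mature neurons did not rise: Rbfox1 fell by 0.39, and Rbfox3 (0.10), Nova1 (0.03), Nova2 (-0.46) and Srrm4 (-0.31) were not called. Cytosolic ribosomal protein genes shifted by less, 13 of 28 higher and 0 lower by limma (median 0.24) and 0 lower also at an unadjusted p under 0.05; 20 were higher without TH-MYCN replicate 4, 22 with quantile and 18 with normexp processing. None reached 2-fold; Rpl22 (0.75) and Rps3 (0.74) moved most. Other parts of the translation and folding machinery had no common direction: 8 of 20 tRNA synthetases were higher and 5 lower, 2 of 23 mitochondrial ribosomal proteins higher and 4 lower, and 2 of 19 chaperonins and heat shock proteins higher (7 with quantile scaling, 5 without replicate 4) and 4 lower, including Hsp90ab1 (-0.48). The medians of these 3 lists were -0.00, -0.06 and -0.01 and changed sign with the scaling.

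Glycolysis genes were lower. Of 22 glycolysis and glucose transport genes, 21 were lower and 1 higher (median -0.66). Aldoc, the aldolase of brain and ganglia, lay at 6.25, 6.58 and 6.97 in wild type and at 4.57, 5.47 and 6.14 in TH-MYCN ganglia, 2.32-fold lower and without overlap. Eno2, the neuronal enolase (-1.10), Pfkp (-0.98) and Aldoa (-0.80) fell; Hk2, the inducible hexokinase of growing cells, was the member that rose (1.05), with overlapping groups. Of 29 genes of the respiratory chain and ATP synthase, 21 were lower and 0 higher by limma, also at an unadjusted p under 0.05, and none differed by 2-fold. Their median was close to that of all genes (-0.27 against -0.22), and 16 were lower with quantile scaling and 10 with normexp correction. Of 15 genes that respond to low oxygen, 10 were lower and 2 higher, 1 of these by at least 2-fold. Those lower include Bnip3 (-0.85) and the prolyl hydroxylase Egln1 (-0.38). The related Egln3 went strongly the other way: it lay at -3.72, -3.34 and -3.21 in wild type and at 1.08, 2.51 and 3.02 in TH-MYCN ganglia, 53.9-fold higher (difference 5.75, SE 0.22, adjusted p 1.60e-11, limma), and a second probe gave 5.77. Other members of the list include Vegfa (-0.23, not called), Pdk1 (-0.38) and Slc2a1 (-0.30). The cause of the Egln3 rise was not tested.

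One-carbon enzymes moved in both directions. Of 17, 7 were higher and 6 lower (median 0.12). Aldh1l2, the mitochondrial formyltetrahydrofolate dehydrogenase, lay at -4.50, -4.18 and -3.90 in wild type and at -2.48, -1.45 and -0.88 in TH-MYCN ganglia, 6.40-fold higher. Its cytosolic counterpart Aldh1l1, also a glial marker, lay at 0.16, 0.37 and 1.15 against -1.60, -1.12 and -0.13, 2.91-fold lower. Neither overlapped. Thymidylate synthase (Tyms, 2.06), the glycine cleavage gene Gldc (1.11) and Psat1 (0.91) were higher, and Phgdh, the first enzyme of serine synthesis, was lower (-0.78). Of 17 circadian clock genes, 10 were lower and 2 higher (median -0.60), against 44.1% lower and 21.8% higher among all genes. Nr1d1, the REV-ERB alpha repressor, lay at -1.02, -0.73 and -0.61 in wild type and at -2.50, -1.98 and -1.43 in TH-MYCN ganglia. Its antagonist Rora fell by 0.95 and the output factor Dbp by 0.74. Hlf, a PAR-domain factor of the same family as Dbp, rose 5.34-fold, from -0.59, -0.52 and -0.11 to 0.86, 2.22 and 2.60. Per1 (-0.29) and Per2 (-0.20) were not called, and no source used here gives the hour of dissection.

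Hox genes, which record position along the body axis, were higher in 6 of 24 tested and lower in 6, or 5 and 11 with normexp correction. The 4 members of cluster D tested were all higher: Hoxd4 by 1.78, Hoxd9 by 1.49, Hoxd3 by 1.17 and Hoxd8 by 0.81, the first 3 without overlap. Hoxd9 lay at -4.97, -4.20 and -4.02 in wild type and at -3.54, -2.72 and -2.55 in TH-MYCN ganglia. In clusters A and B no member was higher and 5 were lower, Hoxa6 (-0.84), Hoxa3 (-0.78), Hoxb5 (-0.62), Hoxb7 (-0.62) and Hoxb4 (-0.47). Cluster C held 2 small rises, Hoxc4 (0.56) and Hoxc6 (0.20), and 1 fall, Hoxc9 (-0.35).

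**Figure D2:**
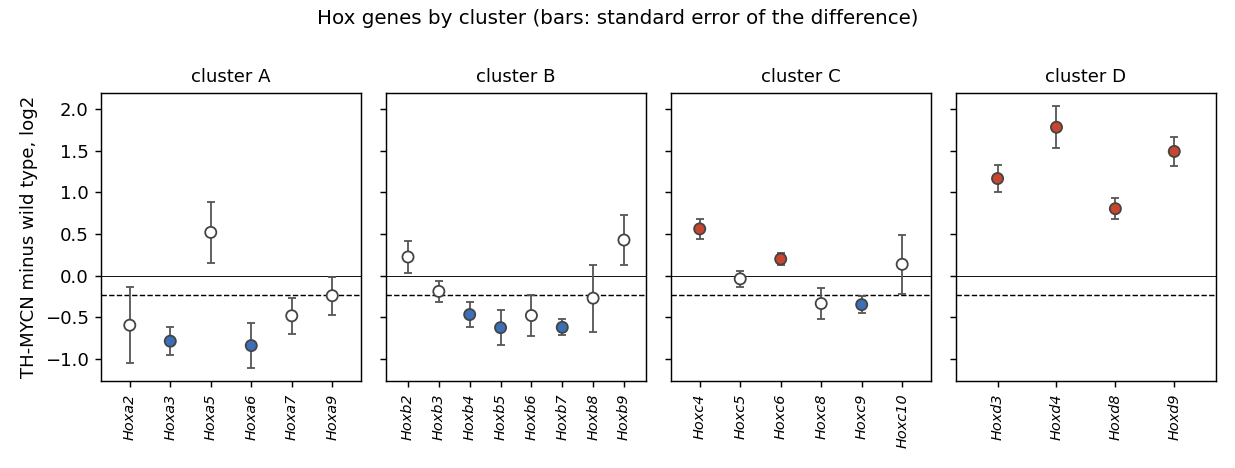
Difference between TH-MYCN and wild-type ganglia in log2 units for 24 Hox genes by cluster and number, with the standard error of the difference (n = 8 and 8), called rises in red, called falls in blue and uncalled genes open; the dashed line is the median of all genes (-0.22). The 4 genes of cluster D lie between 0.81 and 1.78, and no called gene of clusters A and B lies above 0.

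Imprinted genes, expressed from the copy of 1 parent and many of them active in fetal growth, were higher in 8 of 18 and lower in 4 (median 0.24). Magel2 lay at -5.16, -4.63 and -4.04 in wild type and at 0.40, 1.87 and 2.43 in TH-MYCN ganglia, an 81.5-fold difference without overlap (adjusted p 2.46e-11, limma), while its neighbours of the same imprinted domain did not rise: Ndn was not called (-0.25) and Snrpn fell by 0.76. Dlk1, a membrane protein of chromaffin and neuroblast precursors, lay at 1.05, 1.35 and 2.15 against 5.00, 6.55 and 7.00, 29.5-fold higher, and a second probe gave 5.02. Meg3, the RNA of the same domain expressed from the other parental copy, rose by 0.66. Peg10 rose by 2.08, and Peg3 fell by 0.83.

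Developmental signalling genes moved in both directions. Of 21 Notch pathway genes, 8 were higher and 8 lower (median 0.16, -0.24 with another background correction). The ligand Dll1 rose by 2.91, from 5 to 8 ganglia above background, while the target Hes1, an inhibitor of neuronal differentiation, fell by 1.03 and the target Hes5 rose by 1.05. Of 28 Wnt pathway genes, 8 were higher, 4 with normexp correction, and 16 lower (median -0.58); the secreted modulator Sfrp2 rose by 3.71, from 3 to 8 ganglia above background, and its relative Sfrp1 fell by 1.05, while the general target Axin2 was not called (-0.05). Of 17 retinoic acid genes, 0 were higher by limma, with 1 higher at an unadjusted p under 0.05, and 7 were lower (median -0.34). The share lower among all genes was 44.1%. The retinoic acid hydroxylase Cyp26b1 lay at -0.40, 0.08 and 0.83 in wild type and at -2.56, -1.89 and -0.79 in TH-MYCN ganglia, 3.44-fold lower and without overlap. The receptors Rarg (-1.13) and Rxrg (-1.07) fell.

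Regulators of cell death moved in both directions. Of 19 BCL2 family and caspase genes, 9 were higher and 7 lower. Hrk, a BH3-only protein that promotes death of neurons deprived of growth factor, lay at -1.48, -0.99 and -0.84 in wild type and at 1.76, 3.11 and 3.50 in TH-MYCN ganglia, 15.5-fold higher and without overlap (adjusted p 3.69e-10, limma). The BH3-only gene Bid rose by 1.06 and the apoptosome gene Apaf1 by 0.64, and Bcl2l11, the BH3-only protein BIM, was at least 2.41-fold higher, though its difference was -0.137 with normexp correction. The protective genes Bcl2 (-0.99), Bcl2l2 (-0.60) and Bcl2l1 (-0.55) fell, Mcl1 rose by 0.20 and the death-promoting Bad fell by 0.60. In the p53 list, 6 of 18 were higher, 3 with normexp correction, and 8 lower. Among all genes 21.8% were higher and 44.1% lower. Cdkn2a, which encodes the tumour suppressors p16 and p19ARF, rose by 4.32, from 2 to 8 ganglia above background, and Trp53 itself by 0.59. The p53 targets Perp (-1.05), Fas (-0.73) and Cdkn1a (-0.57) were lower, and Bbc3 (0.45) and Mdm2 (0.30) were higher. Mxd3, the MAX partner found in dividing cells, rose by 5.48, from 1 to 8 ganglia above background, against a fall of 0.58 in Mxd4, its relative of resting cells. Igf2bp3, an RNA-binding protein of fetal tissue and a let-7 target, was at least 16.2-fold higher.

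**Figure D3:**
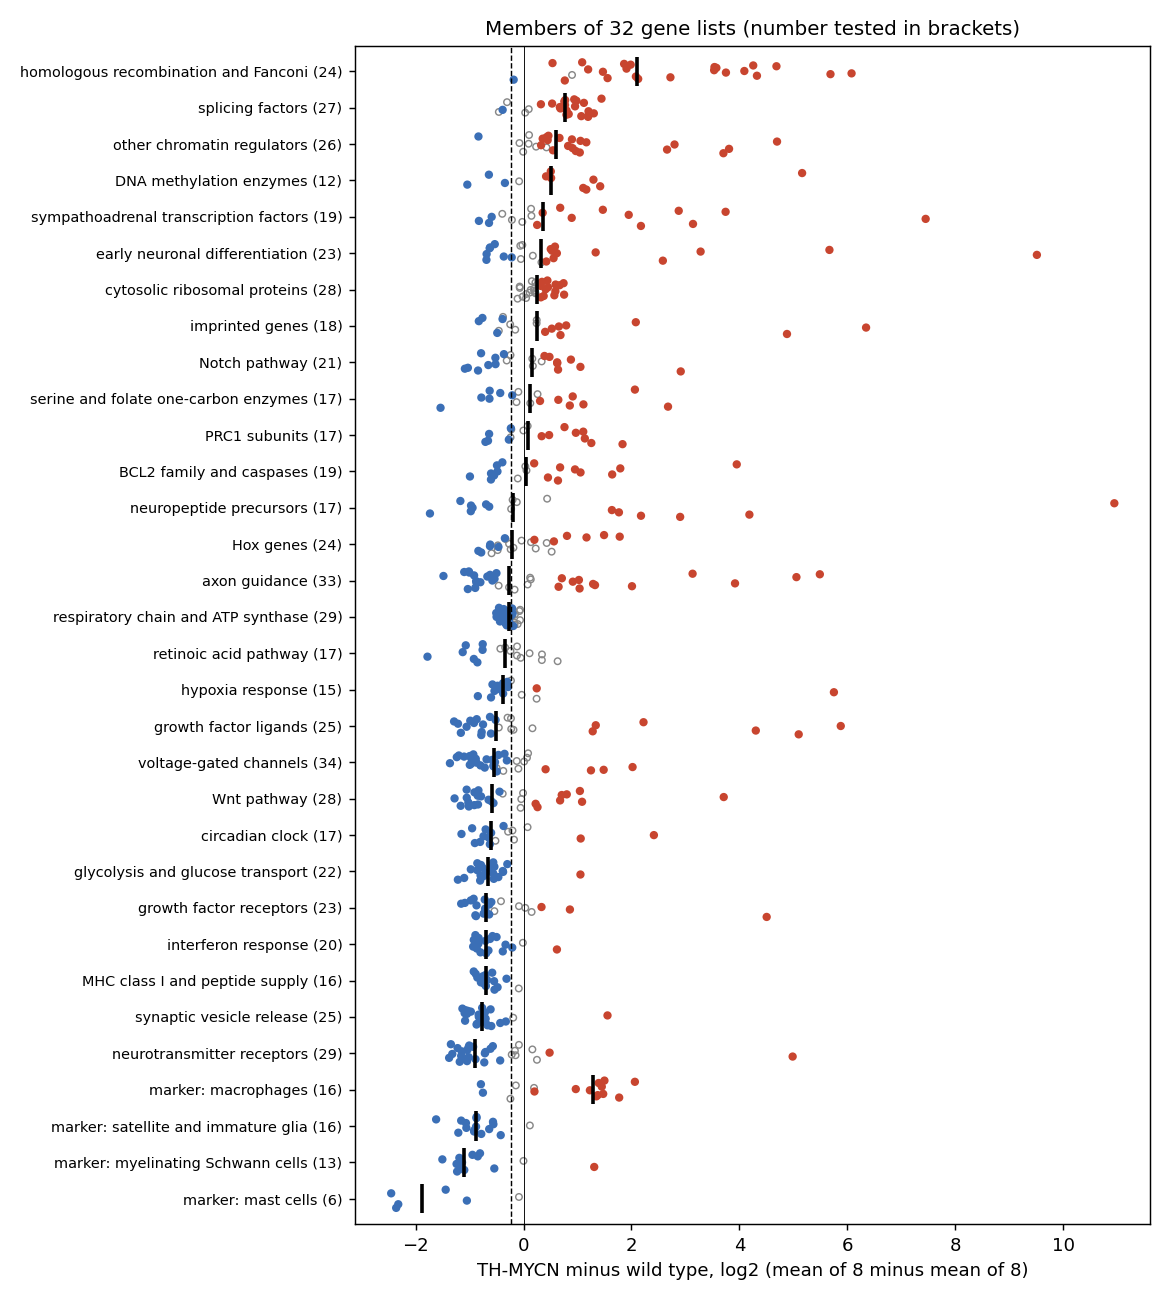
Difference between TH-MYCN and wild-type ganglia in log2 units for the tested members of 32 gene lists, 1 point a gene, red for called higher, blue for called lower and open for not called, with a black bar for the median of each list and a dashed line for that of all genes (-0.22). Genes not above background in 1 group are drawn at their fitted difference, which is not a measured fold; the medians run from 2.10 for recombination and Fanconi genes to -1.88 for mast cell markers.

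Most markers of glia, connective tissue, vessels and mast cells were lower. Satellite and immature glia had 15 of 16 markers lower and 0 higher by limma, also at an unadjusted p under 0.05 (median -0.88), and the mean level of the list was 1.55 to 1.85 in wild type and 0.37 to 1.32 in TH-MYCN ganglia. S100b lay at 2.68, 2.85 and 3.19 against 0.78, 1.21 and 1.87, 3.07-fold lower and without overlap. Of 13 markers of myelinating Schwann cells, 11 were lower, with list means of 0.62 to 1.13 against -0.42 to 0.64; Egr2, a myelination factor that is also an immediate early gene, rose by 1.31. Fibroblast (12 of 15), endothelial (11 of 14), pericyte and smooth muscle (11 of 13) and collagen and basement membrane genes (23 of 25) were lower, against 44.1% of all genes. Among them Fbln1 rose by 1.73. The 6 mast cell markers tested had 5 lower, with a median list mean of -0.88 in wild type against -2.60 in TH-MYCN ganglia. Of 8 chromaffin cell markers 7 were lower, and Pnmt, which makes adrenaline from noradrenaline, rose by 1.73 with overlap. Th and Dbh of this list are also among the 12 sympathetic neuron markers, of which 8 were lower and 1 higher (median -0.58). Only 3 of 9 adrenal cortex markers were tested and 0 were called by limma (1 lower at an unadjusted p under 0.05). The part of these lower marker levels in the falls of other genes was not tested.

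Most macrophage genes were higher. Of 16 tested, 11 were higher and 2 lower (median 1.29), and the mean of the list was -0.23 to 0.44 in wild type and 0.35 to 1.09 in TH-MYCN ganglia. Trem2, a lipid receptor of phagocytes, lay at -0.82, -0.56 and -0.13 in wild type and at 0.84, 1.67 and 2.03 in TH-MYCN ganglia, 4.18-fold higher. C1qa (1.35), Aif1 (1.77) and Cx3cr1 (1.23) rose, the resident macrophage receptor Mrc1 fell by 0.79 without overlap and Cd14 fell by 0.75. Csf1r, the receptor on which macrophages depend, was close to level (0.20) and its probes disagree. The chemokines Ccl3 and Ccl4 were above background on no wild-type array and at least 3.91-fold and 3.98-fold higher; Il1b rose by 2.70, from 2 to 8 ganglia above background, and Cxcl16 by 1.36. By contrast 15 of 16 genes of MHC class I and its peptide supply were lower (median -0.70), as were 6 of 8 MHC class II genes and 18 of 20 interferon response genes (median -0.70), among them H2-K1 (-0.73), Tap1 (-0.89) and Ifit3 (-0.93). The cytokine Tgfb1 fell by 0.96. In primary spheres Trem2, Aif1 and C1qa had mean levels of -6.90, -7.12 and -7.09, far below both groups of ganglia.

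Several of the largest differences belong to no list. Among the 20 largest rises with separate groups and probes above background everywhere, Slc35f2, a solute carrier known for the uptake of the drug YM155, lay at -3.07, -2.61 and -2.21 in wild type and at 2.62, 4.02 and 4.52 in TH-MYCN ganglia, 92.3-fold higher. Slc38a4, an imprinted neutral amino acid transporter, lay at -4.62, -4.15 and -4.04 against 0.65, 2.30 and 2.88, 84.5-fold higher. Lypd1, a GPI-anchored modulator of nicotinic receptors, was 79.3-fold higher (6.31) and the transcription factor Nfe2l3 58.7-fold higher (5.88). The others of the 20 include the cell division genes Ccnb1, Ube2c, Mki67, Spc25, Spag5, Cdca5, Rrm2, Sapcd2 and H1f5, with differences from 5.54 (Rrm2) to 7.24 (Ccnb1). Genes above background in all TH-MYCN and no wild-type ganglia were led, besides those named, by Ush1c (at least 62.4-fold), the cardiac actin Actc1 (at least 38.7-fold), the progenitor factor Myb (at least 37.7-fold), the histone H3c1 (at least 36.0-fold) and the kinesin Kif18b (at least 34.9-fold). The groups did not overlap for these 5 genes.

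The largest falls were smaller. After the mast cell proteases Mcpt4 (-2.45), Cpa3 (-2.32), Cma2 and Tpsb2, they included Spef2, a sperm flagellar and ciliary protein (-1.90), Gkn1, gastrokine 1 (-1.88), Cdh10, a neural cadherin (-1.73), the chemokine Ccl24 (-1.57), Gjc3, the connexin 29 of glia (-1.49), Ccdc170 (-1.47), Dhrs2 (-1.41), the proton channel Otop2 (-1.40), the calcium-dependent phosphodiesterase Pde1a (-1.39), Otor (-1.38), the interferon-induced Tgtp2 (-1.38) and the forkhead factor Foxc2 (-1.37). Gkn1 lay at 0.08, 0.56 and 1.13 in wild type and at -2.50, -1.19 and -0.68 in TH-MYCN ganglia, without overlap. Only Cmah and Trhr were above background in all wild-type and no TH-MYCN ganglia, at least 2.31-fold and 1.64-fold lower.

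A set of probes rose in TH-MYCN ganglia with a shared pattern and is set apart from the results above. It was chosen after its values were seen: 106 probes, 39 of named genes and 67 unnamed, whose levels over the 8 TH-MYCN arrays correlated at 0.95 or more with the mean of the probes for Rabgap1, Ahnak, Gbp6, Klra1 and Mrgprg and which were at least 2 log2 units higher than in wild type and in primary spheres. The median probe of the set was at -4.58 in wild type, 0.35 in TH-MYCN ganglia, -4.63 in primary spheres and -4.29 in passaged spheres. The mean level of the 5 reference probes was 1.02 to 1.65 on the wild-type arrays and 4.21 to 7.01 on the TH-MYCN arrays, with replicate 4 lowest and replicate 2 highest. Named members include Lif, Vpreb2, Rhox3a, Rhox3f and Atg9b, genes of unrelated tissues, of which Vpreb2 (6.06), Rhox3a (5.77) and Atg9b (5.54) are among the 20 largest rises and Rhox3f (at least 39.7-fold) among those not above background in wild type. Of the 16 named members with another probe of the same gene above background, that other probe was at least 2-fold higher in only 2. A rise of these 39 genes, and of Fgf2 and Nhlh2, whose probes correlated with the pattern at 0.94 each and are also low in spheres, is therefore uncertain here for all but the members with another probe at least 2-fold higher. The cause was not tested. Without these probes 1197 genes were at least 2-fold higher in place of 1232.

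**Figure D4:**
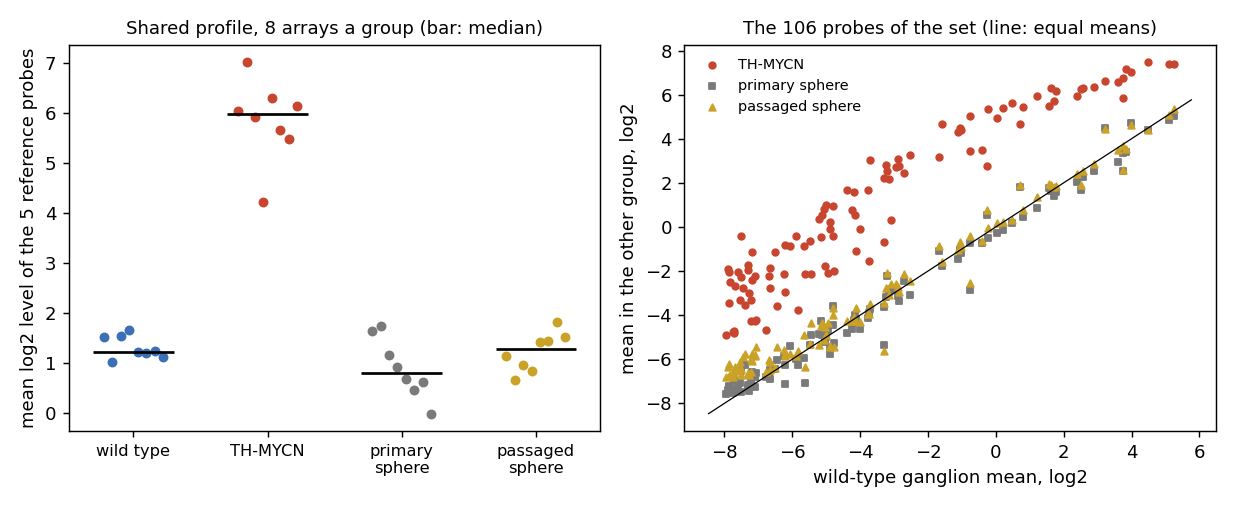
Left, mean log2 level of the 5 reference probes on each array of wild-type ganglia, TH-MYCN ganglia, primary spheres and passaged spheres (8 arrays a group, bar at the median). Right, mean log2 level of each of the 106 probes in the other groups against wild type, with a line of equal means. The TH-MYCN means lie above the line and above the primary sphere means by the choice of the probes. The sphere means lie near the line.

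Levels in primary spheres, cultured from TH-MYCN mice of the same age, are given as a description. Of 584 genes at least 4-fold higher in TH-MYCN than in wild-type ganglia, 414 had a mean in primary spheres at or above that in TH-MYCN ganglia and 101 had a mean no more than 1 log2 unit above that in wild type. The same counts over all tested genes are not given here, so these are not read as particular to the genes that rose. Cartpt reached a mean of 8.34 in spheres against a TH-MYCN median of 3.68, Hmgb2 7.55 against 5.75 and Ebf3 3.62 against 1.42. Slit1 was lower in spheres (0.68) than in TH-MYCN ganglia (median 1.95), and Lypd1 was too (-1.67 against 1.75). Among genes that were lower in TH-MYCN ganglia, Npy (-0.71), Gal (0.34) and Chrna3 (-2.65) were lower again in spheres, whereas Ret (4.08) was above its median in both groups of ganglia (3.75 and 2.89).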

How the data were processed

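Messenger RNA of 16 ganglion samples was read on 1-colour Agilent arrays. The deposited intensity values are processed spot signals, background-subtracted and spatially detrended by Feature Extraction 11.5.1.1 and not normalized between arrays, per the file headers. The deposited log2 table holds the authors' own normalized values and was used as an alternative; set against the scanner values it is scaled to the 75th percentile with a constant taken off each probe that is not stated, and its column medians run from -0.48 to -0.02. Control and outlier spots were left out, spots of a probe averaged, and log2 signal taken minus the 75th percentile of each array. Probes well above background on at least 4 of 16 arrays were kept, and a gene took its brightest kept probe. Another probe was above background for 2842 called genes. In 2228 of these another probe was called the same way and in 104 another was called the other way. Called genes with no other probe above background rest on 1 probe. Of 55681 probes, 27235 were named for 20660 symbols through RefSeq (GRCm38.p6). Groups were compared with limma 3.58.1 (R 4.3.3) and Benjamini-Hochberg adjustment over 15845 genes; a call is an adjusted p under 0.05. The number of arrays limits the precision. Where a probe was above background on no array of a group, a lower bound is given: the mean of the bright group against, per array, the higher of the lowest signal well above background and the probe's own. The scripts were tested on simulated data. Named genes are list members, the 20 largest rises and 20 largest falls of genes that kept their call whichever sample was dropped, with separate groups and probes above background on all 16 arrays, and the 10 largest differences above background in only 1 group. The members and gene lists were chosen with earlier results of these data known. Amounts of 40 or 200 ng RNA were labelled, and which ganglion had which is not known here.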

Additional observations from a re-analysis of the deposited data

Results flagged for a closer look

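TH-MYCN replicate 4 stood apart from the other 7 TH-MYCN ganglia in many of the genes named. Its gap to the nearest ganglion, as a share of the range of the group, was above the 95% limit of Dixon's test for 8 samples in Brip1 (0.573), C1qa (0.603), Cartpt (0.553), Ccnb1 (0.538), Cdca5 (0.591), Chaf1a (0.609), Chaf1b (0.633), Cort (0.551), Dcx (0.603), Fanca (0.552), Fancd2 (0.556), Gfra3 (0.544), H3c1 (0.544), Rtel1 (0.536), Hmgb2 (0.533), Kcnip1 (0.594), Klra1 (0.606), Lsm2 (0.559), Meg3 (0.589), Mxd3 (0.631), Neurod6 (0.545), Prox1 (0.683), Rad54l (0.533), Rrm2 (0.535), Sapcd2 (0.699) and Ube2c (0.595), in all of which it was the lowest. It was the highest in Bcl2l2 (0.539) and Mycn (0.562). The other TH-MYCN ganglia with such gaps were in Cd14 (replicate 7, high, 0.552), Gap43 (replicate 5, high, 0.607), Stmn2 (replicate 8, low, 0.605) and Tubb3 (replicate 8, low, 0.561).

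Among wild-type ganglia the gaps were in Gpc2 (replicate 2, low, 0.55), Apaf1 (replicate 5, low, 0.589), Bbc3 (replicate 2, low, 0.538), Cacna1d (replicate 1, low, 0.592), Cbx6 (replicate 2, low, 0.537), Clspn (replicate 1, high, 0.586), Cort (replicate 5, low, 0.701), Gldc (replicate 5, high, 0.567), Hlf (replicate 3, high, 0.546), Ptbp1 (replicate 8, high, 0.539), Stmn2 (replicate 1, high, 0.607), Tyms (replicate 1, high, 0.721) and Unc5c (replicate 4, low, 0.553). Chance alone passes this limit in about 1 in 20 groups; of 553 groups examined here, 45 passed.

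Probes without a gene name, which the gene counts do not use, also differed: of 14852 tested, 1407 were at least 2-fold higher and 654 at least 2-fold lower in TH-MYCN ganglia (limma). They have no name in the annotation used here, and 67 of them belong to the set of probes with a shared pattern.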

How the results depend on the processing

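Counts of genes called higher or lower stayed within 1.5 times the reported ones under every alternative run: quantile and median scaling, the deposited value table, all 4 groups in one fit, the slide or the replicate number as a block, each slide alone, stricter and no filters, and the mean of a gene's probes. With normexp background correction 805 genes were at least 2-fold higher and 372 at least 2-fold lower. The cause was not tested. List medians, taken less the median of all genes, were less steady. Of 62, 7 changed sign on slide 1 alone, 1 on slide 2 alone and 5 with normexp correction. Leaving out 1 sample at a time gave 3243 to 3635 genes higher, 6595 to 7091 lower, 1158 to 1354 at least 2-fold higher and 695 to 1404 at least 2-fold lower, and 24 to 28 lists with a median above that of all genes. Same-numbered ganglia, which also share a slide, correlated at -0.01 to 0.37, with 7 of 8 pairs over 0.1. Only 2 of 8 wild-type ganglia correlated best with their own number, so the numbers were not taken to pair samples. With a replicate block 3650 genes were higher, 7613 lower, 1233 at least 2-fold higher and 997 at least 2-fold lower. Direction turned with normexp for Bcl2l11 (-0.137), Cacna1g (-0.0675), Epha4 (-0.0683), Ntf3 (-0.0308) and Sv2b (-0.0782). It turned with the mean of a gene's probes for Cacna1h (-0.0749), Smarcc1 (0.24) and Tet3 (0.17), and, in a setting chosen after seeing the data, without the probes of the shared pattern for Ahnak (-0.71), Gbp6 (-0.76), Rabgap1 (-0.38) and Rhox3f (-0.58), which then rest on other probes. Signal near background limits the size of differences of dim probes.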

Other observations

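Outside the lists described, telomere genes were higher in 8 of 13 tested and lower in 0 by limma, also at an unadjusted p under 0.05, led by the helicase gene Rtel1 (1.15) and the dyskerin gene Dkc1 (0.91), while Tert, the telomerase catalytic subunit, was not called (0.47). Cell surface genes changed in both directions: Gpc2, a heparan sulphate proteoglycan of developing neurons, rose by 2.39 and the polysialic acid enzyme St8sia2 by 1.61, while Thy1 (-1.04), Chl1 (-1.01) and L1cam (-0.90), adhesion molecules of mature neurons, were lower. Of 18 immediate early genes 3 were higher and 8 lower, against 21.8% and 44.1% of all genes, with Fos (-0.38) and Egr1 (0.05) not called.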
